A study of Mus musculus with 2 samples.

Results

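The miR-15/16 family was followed through 7 of the 1973 miRNA loci that have a count in embryonic mouse midbrain: Mir15a and Mir16-1, Mir15b and Mir16-2, Mir497b, Mir195a and Mir195b. They were found by gene symbol, as 5 named genes plus the genes called Mir195. A search on the letters Mir195 also returns 10 higher-numbered genes (Mir1950 and the like), so that 12 loci match those letters and 17 the naming rule as a whole. None of the 8 mature sequences listed for these 10 genes carries the family seed, and they were set aside: 5 of them had no read, and the highest, Mir1955, had 256 reads in replicate 1 and 97 in replicate 2. The series holds 1 group, midbrain of B6NCrl mouse embryos at 14.5 days, with 2 libraries of total RNA and no mutant allele, treatment or control group. Each library came from a single midbrain, and the midbrains were taken on different days. They are called biological replicates, although both carry the same pup and pregnancy number and the same donor identifier, and the sex is given as mixed. The spread given here is that between these libraries.

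MicroRNAs of this family share a seed, bases 2 to 8 of the mature strand, which pairs with target messages. The family is known as a brake on cell division: it represses cyclins D and E, cyclin-dependent kinase 6 and other regulators of entry into the cell cycle, as well as the survival factor Bcl2. In humans, the region of MIR15A and MIR16-1 is often deleted in chronic lymphocytic leukaemia. At this stage the midbrain holds dividing progenitors beside newly born neurons.

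The mature strands are printed first because the shared seed defines the family and the bases after it decide which reads can be given to which locus. Each is written 5′ to 3′ with the seed in capitals, from RefSeq on GRCm38.p6, which lists all 7 loci.
miR-15a-5p: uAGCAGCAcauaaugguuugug
miR-15b-5p: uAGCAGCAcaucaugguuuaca
miR-16-5p: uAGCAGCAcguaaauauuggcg
miR-195a-5p: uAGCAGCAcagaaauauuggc
miR-195b: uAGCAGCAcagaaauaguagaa
miR-497a-5p: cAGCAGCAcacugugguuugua
miR-322-5p: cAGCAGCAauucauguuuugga

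The seed AGCAGCA was found in 11 of the 1738 mature sequences of the table, from 11 loci. Of these loci, 6 are the family genes other than Mir497b, and the others are Mir497, Mir322, Mir6342, Mir6353 and Mir6419. Across the 6 distinct strands of the family, 9 of 21 aligned positions held the same base, namely positions 2 to 9 and position 18. The closest pairs came from different chromosomes: miR-16-5p matched miR-195a-5p at 19 of 21 positions, and miR-195b matched miR-195a-5p at 18 of 21. Next came miR-15b-5p and miR-15a-5p, alike at 18 of 22. Strands made from the same transcript matched less, with miR-16-5p and miR-15a-5p alike at 16 of 22 positions and miR-15b-5p and miR-16-5p at 14 of 22. From neighbouring hairpins too, miR-497a-5p and miR-195a-5p matched at 12 of 21. By these counts miR-15a-5p, miR-15b-5p and miR-497a-5p matched one another at 16 to 18 of 22 positions. Among miR-16-5p, miR-195a-5p and miR-195b the matches were 16 of 22, 18 of 21 and 19 of 21. Pairs across these sets matched at 11 to 16 of 22 positions, or 12 to 15 of 21. The sets thus met at 16 of 22, the count of miR-16-5p with miR-15a-5p, and no gap parted them. The other arms of the 6 hairpins in the 3 clusters carried 6 different seeds, none of them that of the family.

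The loci form 3 short tandem clusters and 1 lone gene, in coordinates of mouse assembly mm10. Mir15a (ENSMUSG00000093007.1, chromosome 14 from 61632027 to 61632110, minus strand) is followed after 54 nt by Mir16-1 (ENSMUSG00000092995.1, 61631880 to 61631972) in the noncoding gene Dleu2. Mir15a is intronic, and Mir16-1 overlaps by 13 nt an exon of a Dleu2 transcript. Mir15b (ENSMUSG00000065580.1, chromosome 3 from 69009772 to 69009835, plus strand) and Mir16-2 (ENSMUSG00000065606.1, 69009902 to 69009996) lie 66 nt apart in an intron of Smc4, which encodes a condensin subunit needed to compact mitotic chromosomes. The counted version of Mir15b is older than the annotated version, so the counted interval may differ from the printed one. On chromosome 11, Mir497 (70234717 to 70234800, plus strand) precedes Mir195a (ENSMUSG00000065411.2, 70235042 to 70235135) by 241 nt, outside any annotated host gene and 71 bp from 0610010K14Rik. Mir497 has no count of its own here. Mir497b (ENSMUSG00000070109.2, 70234692 to 70234816) covers it on the minus strand, so the reads opposite to Mir497b stand for Mir497. Mir195b (ENSMUSG00000098437.1, chromosome 2 from 56785811 to 56785907, plus strand) lies outside any host, with Nr4a2 the nearest protein-coding gene at 320923 bp.

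**Figure D1:**
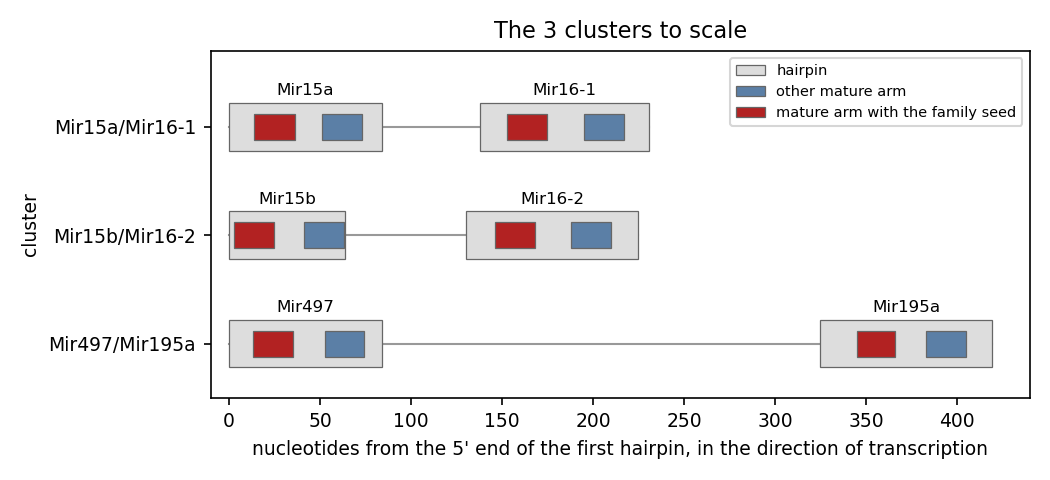
The 3 clusters drawn to scale, in nucleotides from the 5′ end of the first hairpin in the direction of transcription. Grey boxes are hairpins, red boxes the mature arm with the family seed and blue boxes the other arm; the gaps of 54, 66 and 241 nt separate the hairpins, and the seed-bearing arm comes first in each.

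Mir16-1 and Mir16-2 make the same miR-16-5p, and their hairpins share an unbroken 23 nt that contains the whole mature strand of 22 nt. The stretch is shown in lower case, with the next 8 bases in capitals.
Mir16-1: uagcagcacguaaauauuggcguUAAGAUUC
Mir16-2: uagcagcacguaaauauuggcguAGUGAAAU

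A read of miR-16-5p that ends within the lower-case part fits both genes. The deposited tables tally reads with several map positions apart from the genes, 36.2% of all reads in replicate 1 and 36.9% in replicate 2. The other arms tell the loci apart, since they match at 12 of 22 positions, with no shared run over 9 nt.
miR-16-1-3p: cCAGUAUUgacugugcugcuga
miR-16-2-3p: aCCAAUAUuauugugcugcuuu

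Over all loci, the reads with several map positions numbered 233 times the summed counts of Mir16-1 and Mir16-2 in replicate 1 and 309 times in replicate 2. The counts of both genes therefore leave out an unknown number of miR-16-5p reads, and the tables do not separate the arms of a hairpin. A full-length miR-16-5p read ends within the shared stretch, so the counts of Mir16-1 and Mir16-2 are not levels of miR-16-5p. None of the other 5 family loci shares 20 nt or more with another annotated hairpin: the longest runs were 16 nt between Mir195a and Mir195b, 13 nt for Mir15a and 12 nt each for Mir15b and Mir497b.

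Replicate 1 held 7302633 sense reads at miRNA loci and replicate 2 held 3966727, and CPM (counts per 1000000) were taken on these totals. The RNA sequenced was under 30 nt, so counts were not divided by hairpin length. The neural list (Mir9, Mir124a, Mir128, Mir137, Mir149 and Mir153 genes) had 8 of 10 counted loci detected (10 or more reads in both libraries). Its loci summed to 36068 CPM in replicate 1, beside 41083 in replicate 2. Mir9-1 has no count, and Mir9-2 and Mir124a-3 were the loci not detected. The muscle list had 1 of 5 detected and 23.6 and 31.0 CPM, with Mir133a-1 and Mir133a-2 at 0. Genes of the cell type lists were not searched for shared stretches, so reads with several map positions may be missing from their counts. A low count or a 0 therefore does not show that a miRNA is absent. The list of red cells had 3 of 3 detected, and that of mesenchyme and meninges 4 of 6. That of white blood cells had 3 of 4, with Mir142b at 0, and that of vessels 3 of 4, with Mir145b at 0. Lists were counted on the annotated strand only, and Mir142 and Mir126b have no count. A 0 on that strand says nothing of reads on the other. In bulk tissue a smaller number of cells of a type and less RNA per cell cannot be told apart.

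Of the 7 family loci 6 were detected, against 20.2% of all 1973 loci. Together they held 1.23% of the sense reads in replicate 1 (95% interval by Clopper-Pearson, 1.22 to 1.23). In replicate 2 the share was 1.09% (1.08 to 1.10), for a mean of 1.16% ± 0.0968 (SD, n = 2). Intervals cover counting error within a library only. Copies made by PCR are not independent molecules, so even that error may be larger than the intervals show.

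Mir15a, of the Dleu2 cluster, was the highest of the family. It had 40876 reads in replicate 1 and 20078 in replicate 2, or 5597 and 5062 CPM, with a mean of 5330 ± 379 CPM (SD, n = 2) and rank 39 of all loci. Mir16-1 in the same transcript had 22107 and 9346 reads, or 3027 and 2356 CPM, with a mean of 2692 ± 475 CPM and rank 65. Its count excludes the shared miR-16-5p reads and is a lower limit for the hairpin.

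Mir15b, in the Smc4 intron, had 12028 reads in replicate 1 and 7063 in replicate 2, or 1647 and 1781 CPM, with a mean of 1714 ± 94.4 CPM. Its coefficient of variation, 5.51%, was the smallest among the 6 detected loci. Mir16-2, its neighbour, had 5599 and 2102 reads, or 767 and 530 CPM, with a mean of 648 ± 167 CPM. Its coefficient of variation of 25.8% was the largest of the 6, and its count is likewise a lower limit.

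The chromosome 11 genes, studied as brakes on heart muscle cell division after birth in the mouse, were the lowest of the detected loci together with Mir16-2. Mir195a had 5384 reads in replicate 1 and 2345 in replicate 2, or 737 and 591 CPM, with a mean of 664 ± 103 CPM. Opposite to Mir497b stood 3605 and 2303 reads, or 494 and 581 CPM, with a mean of 537 ± 61.5 CPM, whereas the annotated strand of Mir497b held 1 read and 0 reads. Mir195a had 2 reads and 1 read on its opposite strand, and Mir15a, Mir16-1, Mir15b and Mir16-2 had 0 in both libraries.

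Mir195b, the lone gene on chromosome 2, had 1 read in replicate 1, or 0.137 CPM with an exact Poisson 95% interval of 0.00347 to 0.763 CPM, and 0 in replicate 2. The exact two-sided Poisson interval of the 0 reaches up to 0.930 CPM, and the floor of 3 reads used for a count of 0 is 0.756 CPM. Its mature strand departs from miR-195a after 16 shared nt, so a full-length read can be told apart.

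**Figure D2:**
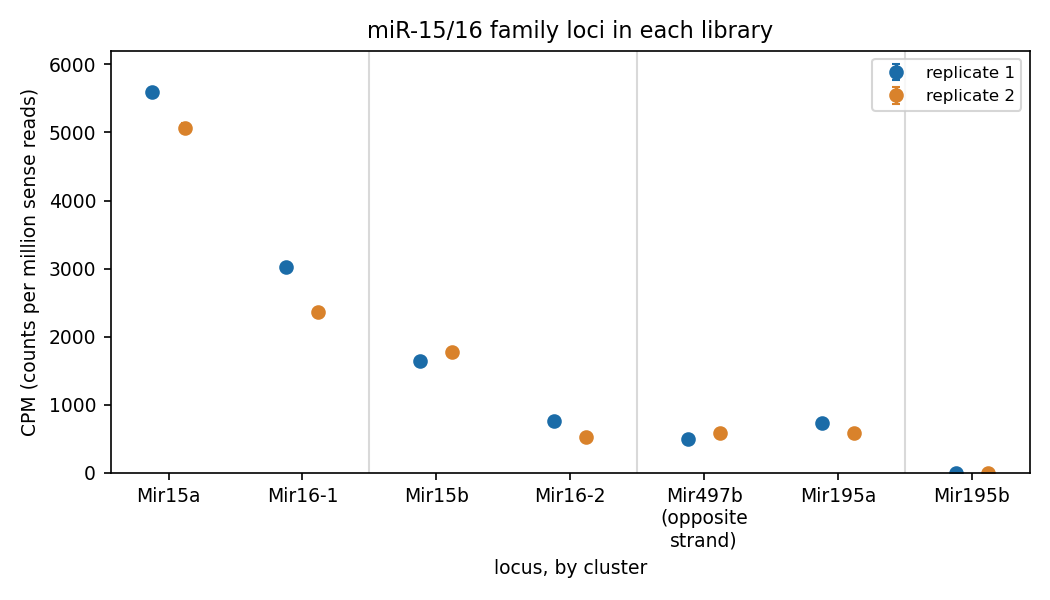
CPM of each family locus in replicate 1 (blue) and replicate 2 (orange), by cluster, on a linear axis from 0; bars are exact Poisson 95% intervals and are mostly smaller than the points. Mir15a stands at 5597 and 5062 CPM, while Mir195b stands at 0.137 and 0 CPM.

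The order Mir15a, Mir16-1, Mir15b, then the rest was the same in both libraries, for reads assigned to a locus. Of the 21 pairs of loci, 19 had ranges that did not overlap between the replicates. The exceptions were Mir195a with Mir16-2 and Mir16-2 with Mir497b, which are neighbours in the order and were not resolved. Levels of different loci were not tested against each other, with 2 libraries per locus.

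**Figure D3:**
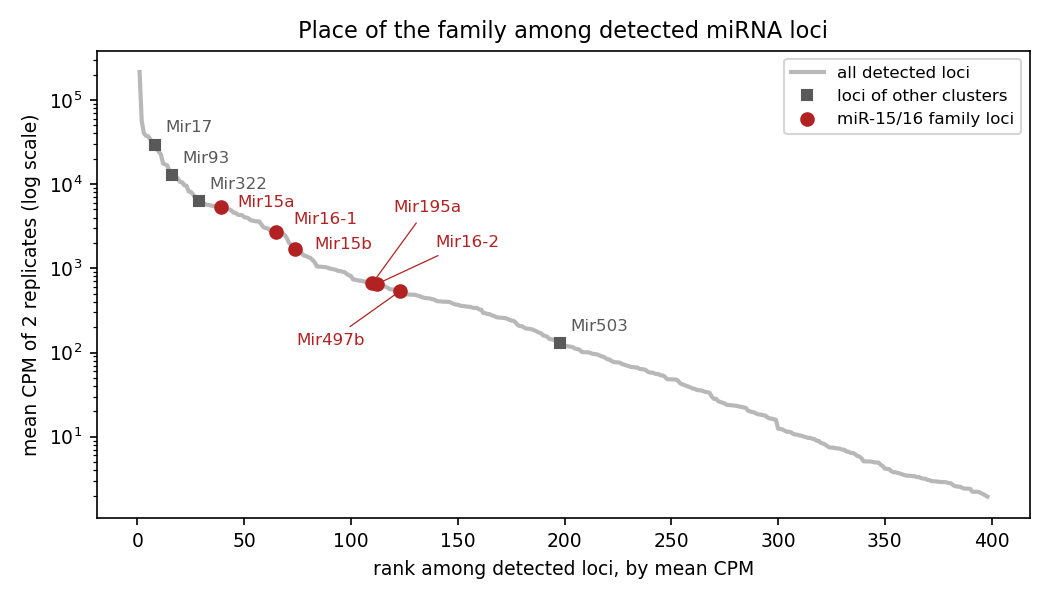
Mean CPM of the 398 detected loci (log axis) against rank, with family loci in red and Mir17, Mir93, Mir322 and Mir503 in grey. Mir15a ranks at 39, and Mir195a, Mir16-2 and Mir497b lie close together at ranks 110, 112 and 123.

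By cluster, the Dleu2 pair held most of the family's assigned reads. Mir15a and Mir16-1 together took 69.2% ± 1.58 (SD, n = 2) of the family's reads, the Smc4 pair 20.4% ± 1.08, and the chromosome 11 pair 10.4% ± 0.507. The Dleu2 pair exceeded the Smc4 pair 3.57-fold in replicate 1 and 3.21-fold in replicate 2, a mean of 3.39 ± 0.256 (SD, n = 2). It exceeded the chromosome 11 pair 7.01-fold and 6.33-fold, with a mean of 6.67 ± 0.478. The Smc4 pair exceeded the chromosome 11 pair 1.96-fold and 1.97-fold, so that this ratio was nearly alike in the libraries. Between genes of like name, Mir15a exceeded Mir15b 3.40-fold and 2.84-fold and Mir16-1 exceeded Mir16-2 3.95-fold and 4.45-fold. The last ratio, and each share or fold that includes a miR-16 gene, holds for the assigned reads and need not hold for the hairpins, as the shared miR-16-5p reads are missing.

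Within the clusters the balance of the hairpins differed more between the libraries than the balance of the clusters did. The ratios within the 3 clusters differed 1.16-fold, 1.56-fold and 0.682-fold, as replicate 1 over replicate 2, whereas those between clusters differed 1.11-fold, 1.11-fold and 0.994-fold. Mir16-1 over Mir15a was 0.541 in replicate 1 (95% interval 0.532 to 0.550, from the exact binomial interval of the share) and 0.465 in replicate 2 (0.454 to 0.477). Mir16-2 over Mir15b was 0.465 (0.451 to 0.481) and 0.298 (0.283 to 0.313). In both clusters the miR-16 hairpin thus counted fewer reads than its miR-15 neighbour, with the lower ratio in replicate 2. Mir497, read opposite to Mir497b, over Mir195a was 0.670 in replicate 1 (0.642 to 0.699) and 0.982 in replicate 2 (0.927 to 1.04), the higher value being in replicate 2. Means over the replicates were 0.503 ± 0.0533, 0.382 ± 0.119 and 0.826 ± 0.221 (SD, n = 2). The intervals of the libraries did not overlap in any of the 3 clusters, but with 1 library each they set these libraries apart and not animals. The loss of shared miR-16-5p reads lowers both miR-16 ratios by an amount the files do not give.

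**Figure D4:**
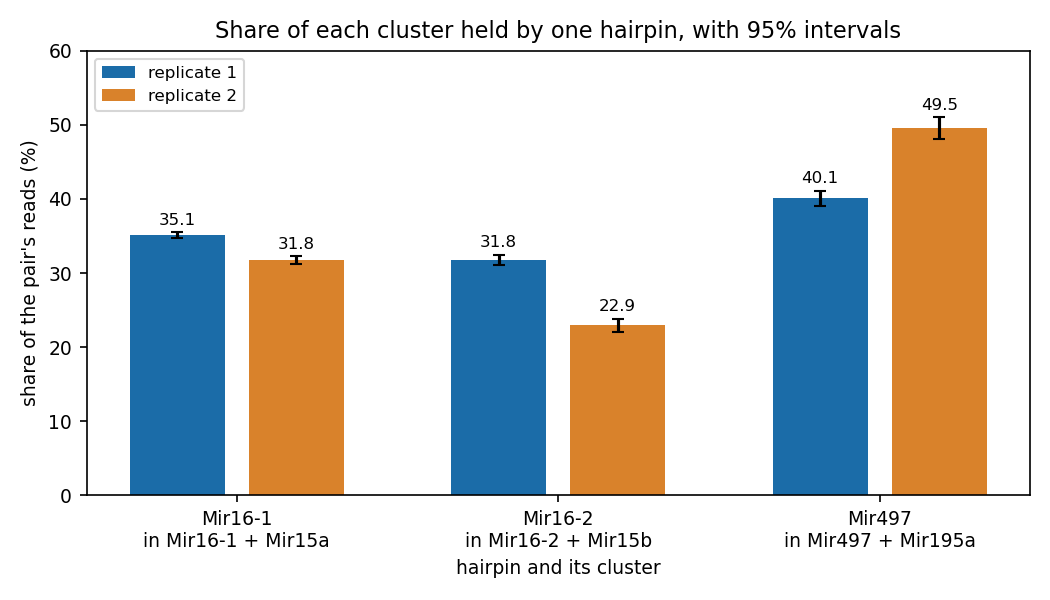
Share of a pair's reads held by Mir16-1, Mir16-2 and Mir497, in replicate 1 (blue) and replicate 2 (orange), with exact Clopper-Pearson 95% intervals. Mir16-1 holds 35.1% and 31.8%, Mir16-2 31.8% and 22.9%, and Mir497 40.1% and 49.5%.

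The replicates were then compared locus by locus, over the 398 loci detected, with totals scaled by TMM. An exact two-sided binomial test with Benjamini-Hochberg adjustment separated 4 family loci with replicate 1 higher and 1 with replicate 2 higher. Over all 398 loci it separated 29.6% (118 loci) with replicate 1 higher and 24.6% (98) with replicate 2 higher. With plain totals the split over all loci was 90 and 128, and Mir15b also passed, toward replicate 2. This test sets 2 libraries against each other and allows for counting error only.

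Mir16-2 differed most in the family, with log2(replicate 1/replicate 2) of 0.62 (95% interval 0.55 to 0.70; exact binomial test, adjusted p = 1.12e-66). Mir16-1 stood at 0.45 (0.42 to 0.49; exact binomial test, adjusted p = 4.23e-146) and Mir195a at 0.41 (0.34 to 0.48; exact binomial test, adjusted p = 1.64e-30). Mir15a stood at 0.23 (0.21 to 0.26; exact binomial test, adjusted p = 6.33e-80). Mir497 stood at -0.14 (-0.22 to -0.07; exact binomial test, adjusted p = 0.000473), and Mir15b at -0.02 (-0.07 to 0.02; exact binomial test, adjusted p = 0.390). Of the 6 loci only Mir16-2 was at least 1.5-fold apart with TMM scaling, which held for 16.6% of the 398 loci. With plain totals Mir16-2 was 1.45-fold apart, and 0 of the 6 reached 1.5-fold. With edgeR's exactTest at a preset biological coefficient of variation of 0.1, Mir16-2 passed (adjusted p = 0.0447) with replicate 1 higher, against 5.28% of the 398 loci in that direction and 1.26% in the other. The other 5 did not pass, with adjusted p between 0.215 for Mir16-1 and 0.982 for Mir15b in edgeR's exactTest. The median log2 ratio was 0.32 over the 6 loci and -0.01 over the 398. Neighbouring hairpins come from the same transcript, so the 6 loci are not independent.

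**Figure D5:**
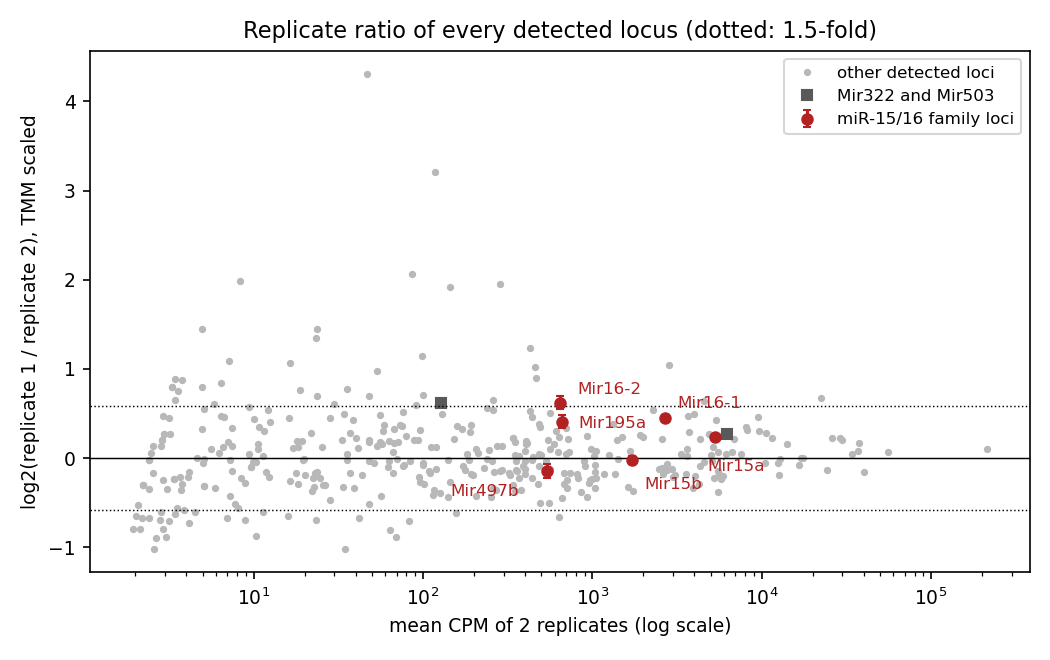
Log2 ratio of replicate 1 over replicate 2 after TMM scaling against mean CPM (log axis) for the 398 detected loci, with family loci in red, exact 95% intervals, and Mir322 and Mir503 in dark grey. Mir16-2 lies at 0.62, above the dotted line at 1.5-fold, and the other 5 family loci lie between the dotted lines.

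Markers of blood cells and vessels, and some of mesenchyme, differed between the libraries in the same direction as Mir16-1, Mir16-2, Mir195a and Mir15a. The red cell list summed to 486 CPM in replicate 1, against 153 in replicate 2, with 2 of 3 loci higher in replicate 1 by the exact binomial test. The white blood cell list summed to 403 and 178 CPM, with 3 of 3 tested loci higher, among them Mir223 at 212 and 24.5 CPM. The vessel list summed to 32566 and 21781 CPM, with 3 of 3 higher, mostly from Mir126a at 27037 and 18011 CPM. The list of mesenchyme and meninges summed to 1273 and 1390 CPM, with 2 of 4 loci higher in each direction. Mir199b, at 88.7 and 4.79 CPM, and Mir214, at 224 and 63.3 CPM, were higher in replicate 1 by 4.30 and 1.91 on the log2 scale. Mir10a and Mir10b, which hold most of the sum, were higher in replicate 2. The median log2 ratio of the list was 0.81. In the neural list 0 of 8 loci were higher in replicate 1 and 4 were higher in replicate 2. Lists of other miRNAs were compared in the same way, with TMM scaling. Over all 398 loci, 118 were higher in replicate 1 and 98 in replicate 2, with a median log2 ratio of -0.01. With plain totals that split was 90 and 128, and the lists were not recounted on plain totals. Of 15 loci of growth-promoting clusters 8 were higher in replicate 1 and 3 in replicate 2, with a median log2 ratio of 0.22. Of 19 loci of other miRNAs that restrain proliferation 11 and 2 were, with a median of 0.20. Of 7 loci of other cell cycle miRNAs 2 were higher in each direction. The part of the cell type markers in the family's replicate differences was not tested.

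Outside the 3 clusters, Mir322 was the only locus with the family seed to be detected. Mir322, on the X chromosome and known in the mouse to promote cell cycle exit in muscle precursors, had 6597 and 5834 CPM, a mean of 6215 ± 539 CPM. Mir15a stood at 0.849 of Mir322 in replicate 1 and 0.868 in replicate 2, with ranges of CPM that did not overlap. Its neighbour Mir503, whose seed AGCAGCG differs in the last base, had 151 and 105 CPM. Mir6342, Mir6353 and Mir6419 had 0 reads in both libraries, as did Mir1907, which was listed beside them but has no listed mature sequence with this seed. With Mir322, the loci of the family held 1.89% of the sense reads in replicate 1 and 1.67% in replicate 2. These shares count reads assigned to hairpins, whose arms are not separated, and leave out reads with several map positions. They are therefore not shares of reads that carry the family seed.

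The family counted fewer reads than 2 of the 3 growth-promoting clusters and more than the other. Its 6 detected loci summed to 0.244 of the Mir17 polycistron (6 loci, from Mir17 to Mir92-1) in replicate 1 and 0.237 in replicate 2. They summed to 0.496 and 0.402 of the cluster of Mir106b, Mir93 and Mir25. The X-linked cluster of 6 loci from Mir106a to Mir363 had 2062 and 1683 CPM in all. The family's 6 loci summed to 5.95 and 6.48 times as much, and to 1.82 and 1.84 times Mir322 with Mir503. Apart from Mir322 and Mir503, loci of these clusters and of the lists below were not searched for shared stretches. Their counts may leave out reads with several map positions, as those of the miR-16 genes do. These ratios therefore hold for assigned reads and need not hold for the clusters. All 15 loci of the growth list, whose miRNAs promote division in many cell types, were detected, with a median of log2(mean CPM + 1) of 9.41, beside 9.38 for the 7 family loci and 0 for all 1973 loci. The list was led by Mir17 at 30587 and 27774 CPM, and Mir19b-2 was lowest at 4.11 and 2.77 CPM. Of 20 counted loci of the list of other miRNAs that restrain proliferation (let-7, miR-26, miR-29 and miR-34 genes), 19 were detected, with a median of 8.34. Mirlet7g led it at 55730 and 56496 CPM, and Mir29b-2 was lowest at 2.88 and 2.02 CPM. Of 10 counted loci of a last list of cell cycle miRNAs, 7 were detected, with a median of 4.75. This list shares Mir137 and the Mir124a genes with the neural list. Mir137 was highest in it at 11495 and 13936 CPM and Mir449c lowest at 1.37 and 0.504 CPM. The medians of the lists hold for assigned reads, and the part of uncounted shared reads in their differences was not tested.

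The loci closest to each family member were sought by the distance in log2(CPM + 1) over the 2 libraries. Mir151 (0.10) and Mirlet7d (0.12) lay closest to Mir15a, Mir139 (0.18) and Mir423 (0.36) to Mir16-1, and Mir467d (0.10) and Mir433 (0.24) to Mir15b. Mir16-2 lay closest to Mir195a (0.17), a locus of its own family on another chromosome, and then to Mir34c (0.25). Mir195a had Mir204 (0.11) and Mir7-1 (0.14), and Mir497 had Mir9-3 (0.08) and Mir187 (0.11). With 2 libraries these are neighbours in level and say nothing of a shared pattern across tissues.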

How the data were processed

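Small RNA of 2 midbrain libraries was analysed from the raw counts per miRNA gene that the authors deposited for each library, in both strands together, the annotated strand and the opposite strand. The text deposited with each library names assembly mm10 and annotation M4; no aligner or counter is given in the sources used here. Reads in classes outside genes, several map positions included, stayed out of totals. Symbols, positions and hosts came from GENCODE M21 by identifier without version (1894 of 1973 loci matched, 7 of 7 family loci, 6 of 7 in the same version), and sequences from RefSeq. CPM used the sense total; the Mir497b value is the opposite-strand count. A shared stretch is an exact run of at least 20 nt.

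With 1 group, no test between conditions and no glmQLFTest could be run. Replicate ratios used TMM in edgeR 4.0.16 (R 4.3.3) and an exact binomial test, with a threshold of 0.05 for adjusted p. The test was checked on simulated data with known ratios. Those data held counting error only, so the check says nothing of spread beyond it. Alternatives were DESeq2 1.42.0 size factors, plain totals, other filters, edgeR's exactTest at dispersion 0.01, other totals, unstranded counts and each replicate left out. Python 3.11.15 and scipy 1.17.1 gave exact intervals. Members and lists were chosen with earlier results of these data known. Named loci are all family and same-seed loci, the highest and lowest of each list, list markers and the 2 loci nearest each detected member; Mir1955 was named after its values were seen.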

Additional observations from a re-analysis of the deposited data

How the results depend on the processing

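The ratios between and within the 3 clusters do not depend on the library total, and with unstranded counts they moved by less than the replicate SD. The family share was 1.47% with Mir99a, the most abundant locus, left out of the total and 0.477% of all reads in the tables, against 1.16% of sense reads. Both follow from the change of total. The same totals moved the level of each of the 6 detected loci beyond its replicate SD and left their order as it was. Leaving out a replicate gives the value of the other library, which lies within 1 SD of the mean of 2 by construction, so it says nothing of stability. The exact binomial test and edgeR's exactTest differed most: 118 and 98 loci passed with replicate 1 and replicate 2 higher in the first, 21 and 5 in the second. Of the family loci, Mir15a, Mir16-1, Mir195a and Mir497 no longer passed in the second, at unchanged ratios. Mir15b passed with plain totals, at -0.11. No direction of a family locus turned under the alternatives run. No paired analysis was possible because the study has 1 group. Depth limits Mir195b most, and the loss of reads shared by Mir16-1 and Mir16-2 limits both, whatever the depth.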
